A study of Arabidopsis thaliana with 4 samples.

Results

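Histone H3 genes of Arabidopsis thaliana were followed in the endosperm, the nutritive tissue of the seed, at 4 days after pollination. There were 9 such genes, listed by locus, though with earlier results of these data known: 5 for canonical H3 (HTR1, HTR2, HTR3, HTR9 and HTR13), 3 for the variant H3.3 (HTR4, HTR5 and HTR8) and 1 for the centromeric H3, HTR12. Each has 1 named probe, and all 9 had a value on all 4 arrays, among 10513 named genes that did. Endosperm was cut from silique sections by laser capture, and 3 such samples were each hybridised on 2-colour oligonucleotide arrays against 1 common reference RNA. That reference was the tissue left on 1 of the slides after cutting; the labels' descriptions also call it whole silique. Endosperm was labelled with Cy3 in replicate 1, with Cy5 in replicate 3, and once with each dye in replicate 2, which gave 4 arrays. The labels give no genotype or strain, nor whether different plants gave the 3 samples. The p-values therefore cover the spread among these samples, which may be technical and includes any effect of the dye. They cover none of the spread between reference RNAs.

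Histone H3, together with H2A, H2B and H4, forms the core on which DNA is wound in the nucleosome. Canonical H3, also named H3.1, is mostly made in S phase and placed behind the replication fork, whereas H3.3 is placed throughout the cell cycle and is typical of transcribed genes. HTR12, also known as CENH3, replaces the other forms at centromeres and marks where the kinetochore assembles. The endosperm at this stage goes through rounds of nuclear division, before most of it forms cell walls. The canonical genes all encode the same protein, as do the H3.3 genes, so probes tell apart genes but not proteins of a class. The probe sequences were not used here, and how far the probe of one gene takes up transcripts of a sister gene was not tested.

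Values are log ratios, taken as log2 of endosperm over reference. Base 2 is an assumption, and the folds and the test against a 1.5-fold change hold only under it. The direction is not stated in the sources used here but is likely: the median of 9 measured endosperm markers, mostly type I MADS-box genes, was 1.67, 1.89, 1.82 and 1.31 on the arrays of replicate 1, replicate 2 with Cy3, replicate 2 with Cy5 and replicate 3. All array values below follow that order. If the reference were the numerator, higher and lower would trade places throughout. Of these 9 markers, from 17 listed, 8 were higher, beside 32.0% of all probes. They set the direction, so that count is no separate support for it. ALC, the 1 gene measured of 6 listed for the silique wall, was lower at -2.40 ± 0.22 (SD, n = 3). The seed coat markers INO, BAN and DFR, of 6 listed, were at -0.73, -0.39 and 0.15. None of the 7 listed embryo markers had a named probe. Both tissues are bulk samples, so more cells of a type and more RNA per cell cannot be told apart. Each array held values for 21829 to 23171 probes, 19449 probes had one on every array, and pairs of arrays correlated with Pearson's r from 0.87 to 0.92 across probes, which are no replicates of each other.

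HTR12 and the canonical gene HTR3 were higher in endosperm and the H3.3 gene HTR5 was lower, each with every array on 1 side of 0. The canonical gene HTR9 was also higher, with a smaller and more variable ratio. In total 3 of the 9 genes passed as higher, 1 passed as lower, and 5 missed the threshold (limma against no change, Benjamini-Hochberg adjusted p under 0.05 over all 19449 probes). Over all probes 32.0% were higher and 25.5% lower, so the number of H3 genes higher is close to the background, and the results lie in which genes they are and how far they lie from each other. The median of the 9 ratios was 0.33, beside 0.11 for all probes, and centring each array on its own median took HTR3 from 1.05 to 0.96 and the other genes down by the same step.

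**Figure D1:**
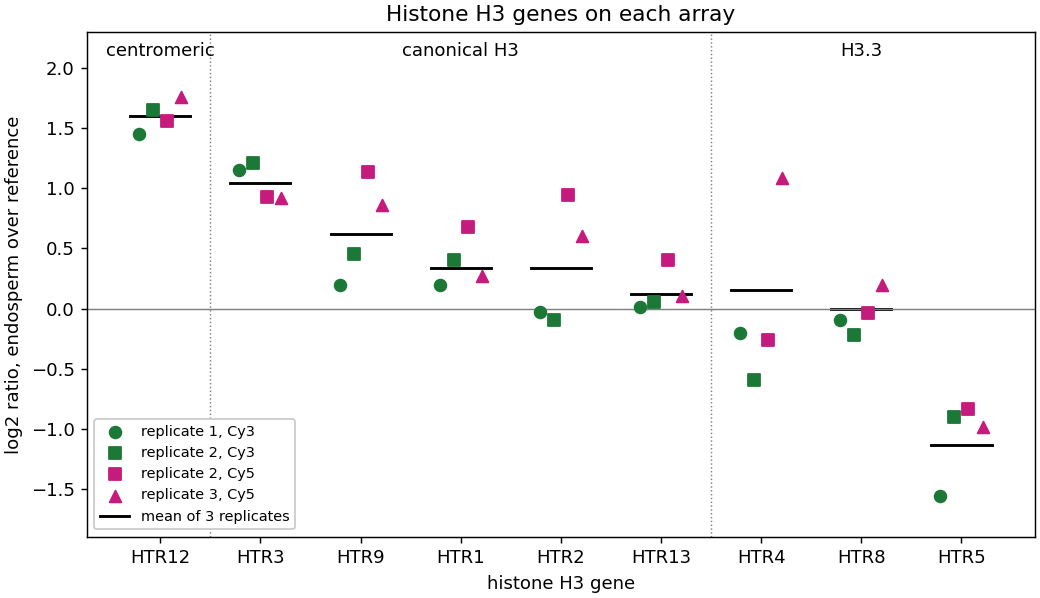
Log2 ratio of endosperm over reference (vertical axis) for each of the 9 histone H3 genes (horizontal axis); points are the 4 arrays, with colour for the dye of endosperm and shape for the replicate, and bars are means of the 3 replicates. HTR12 lies between 1.45 and 1.76 on every array, HTR5 lies between -1.56 and -0.84, and the 1 H3.3 value above 1 is that of HTR4 in replicate 3.

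The centromeric gene HTR12 (AT1G01370) had log2 ratios of 1.45, 1.66, 1.56 and 1.76. The 4 values lie close together, each above that of every other H3 gene on the same array. Its mean was 1.61 ± 0.16 (SD, n = 3), or 3.04-fold above the reference (limma adjusted p = 0.000284). On single arrays HTR12 stood at percentiles 92.5, 96.2, 95.6 and 96.7 of all probes compared, and its mean at percentile 96.0. The spread between its replicates was below the median spread of all probes, 0.23. Tested against a 1.5-fold change, HTR12 also passed (limma adjusted p = 0.00147), as did HTR3 (0.0233) and HTR5 (0.0389). In that test 12.2% of all probes passed as higher and 13.0% as lower.

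Among the canonical genes HTR3 (AT3G27360) stood highest, with log2 ratios of 1.16, 1.21, 0.93 and 0.92. Its mean was 1.05 ± 0.12 (SD, n = 3), or 2.07-fold above the reference (limma adjusted p = 0.000964). Its Cy3 arrays were slightly above its Cy5 arrays, and it lay at percentiles 83.5 to 91.4 of all probes on single arrays. HTR9 (AT5G10400) was at 0.19, 0.45, 1.14 and 0.86, with a mean of 0.62 ± 0.37 (SD, n = 3), 1.53-fold (limma adjusted p = 0.0237). All its values are above 0, with the Cy3 arrays lowest. The call of HTR9 was lost without replicate 2 (mean 0.53, limma adjusted p = 0.123) and without replicate 3 (mean 0.49, limma adjusted p = 0.0885), each with a mean not far below that of all replicates. It was also lost on the Cy3 arrays alone, where the mean was smaller (0.32, limma adjusted p = 0.162).

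The other canonical genes did not pass. HTR1 (AT5G65360) was at 0.20, 0.41, 0.68 and 0.27, with a mean of 0.34 ± 0.18 (SD, n = 3, limma adjusted p = 0.0713). All 4 arrays of HTR1 lie above 0. Leaving out 1 replicate gave it limma adjusted p = 0.0552, 0.379 and 0.154 (without replicate 1, 2 and 3), and centring each array gave 0.172. It passed where replicate 2 entered as a random block of 2 arrays (limma adjusted p = 0.0427), and with all 4 arrays taken as independent (0.0225), which counts 1 sample more than once. HTR2 (AT1G09200) was at -0.03, -0.09, 0.95 and 0.60, with a mean of 0.33 ± 0.33 (SD, n = 3, limma adjusted p = 0.122). Its Cy3 arrays are near 0 and its Cy5 arrays well above it, so HTR1 and HTR2 have the same mean with different arrays behind it. HTR2 passed without replicate 1 (mean 0.52, limma adjusted p = 0.0223), which leaves 2 Cy5 arrays and 1 Cy3 array. It did not pass without replicate 2 (mean 0.29, limma adjusted p = 0.36) or without replicate 3 (mean 0.20, limma adjusted p = 0.446). HTR13 (AT5G10390) was closest to the reference of the 5, at 0.01, 0.06, 0.41 and 0.11, with a mean of 0.12 ± 0.11 (SD, n = 3, limma adjusted p = 0.442). Averaged over the 5 canonical genes, the log2 ratio was 0.31, 0.41, 0.82 and 0.55 on the 4 arrays. Each of these averages is above 0 and rests in part on HTR3.

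The H3.3 genes did not share 1 pattern. HTR5 (AT4G40040) was at -1.56, -0.91, -0.84 and -0.99, with a mean of -1.14 ± 0.37 (SD, n = 3), or 2.20-fold below the reference (limma adjusted p = 0.00241). Every array of HTR5 lies below every array of the other 8 genes. It stood at percentiles 9.54, 15.4, 15.3 and 14.1 of all probes, and replicate 1 was the lowest. HTR8 (AT5G10980) was at -0.09, -0.22, -0.04 and 0.20, with a mean of -0.01 ± 0.18 (SD, n = 3, limma adjusted p = 0.965). HTR8 is the H3 gene nearest to equality with the reference, and its spread between replicates is less than that of the median probe. HTR4 (AT4G40030) was at -0.20, -0.59, -0.26 and 1.09, with a mean of 0.15 ± 0.82 (SD, n = 3, limma adjusted p = 0.688). Replicate 3 alone is above 0, and without it the mean of HTR4 was -0.31 (limma adjusted p = 0.205). The SD of HTR4 lay at percentile 97.4 of all probes, the largest of the 9 genes. The mean over HTR4, HTR5 and HTR8 was -0.62, -0.57, -0.38 and 0.10 on the 4 arrays, below that of the canonical genes on each of them.

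**Figure D2:**
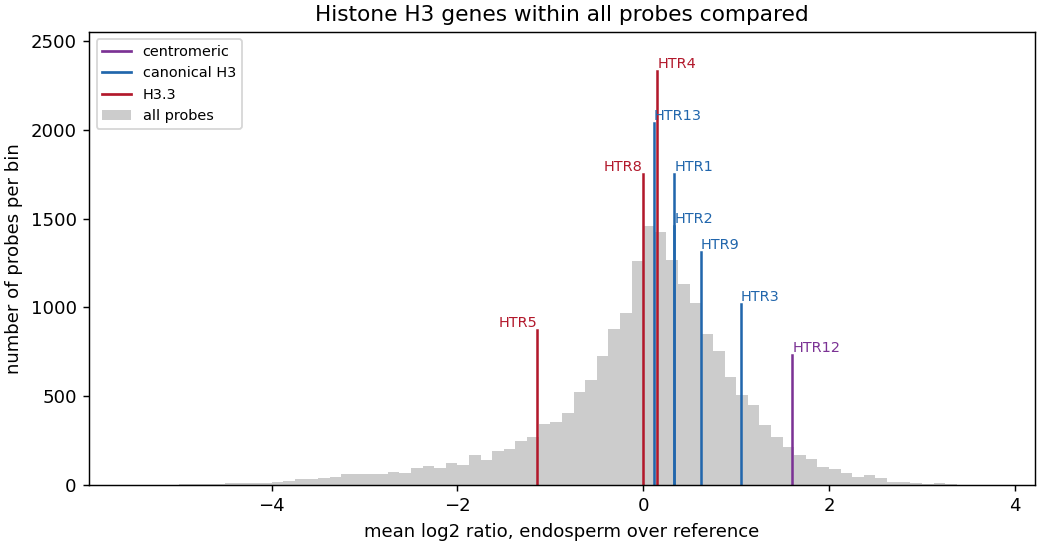
Number of probes (vertical axis) by mean log2 ratio of endosperm over reference (horizontal axis, bins of 0.125) for all 19449 probes compared, with a line at the mean of each H3 gene; line height carries no value. HTR12 (1.61) and HTR5 (-1.14) lie towards opposite tails, at percentiles 96.0 and 12.0, while HTR8, HTR13 and HTR4 lie in the densest part.

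The ratios were then compared between genes within each array, which removes whatever shifts all probes of an array together. This gives unequal change between genes and says nothing about which has more transcript. Of the 36 pairs of H3 genes, 24 had a difference of 1 sign on all 4 arrays, including all 8 pairs with HTR12 and all 8 with HTR5. HTR12 and HTR5 have the highest and the lowest mean, so 1 sign in their pairs follows in part from that. The share among pairs of all probes was not computed. With 3 replicates the exact two-sided sign-flip permutation test cannot go below p = 0.25, which 26 pairs reached (0.346 after Benjamini-Hochberg adjustment over the 36 pairs), so no pair could pass. HTR12 exceeded HTR5 by 2.75 ± 0.27 on the log2 scale (SD, n = 3), a 6.71-fold gap between their ratios, with 2.40 to 3.01 on single arrays. HTR12 exceeded HTR3, the next in order, by 0.56 ± 0.28, with 0.29 to 0.84 on single arrays.

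**Figure D3:**
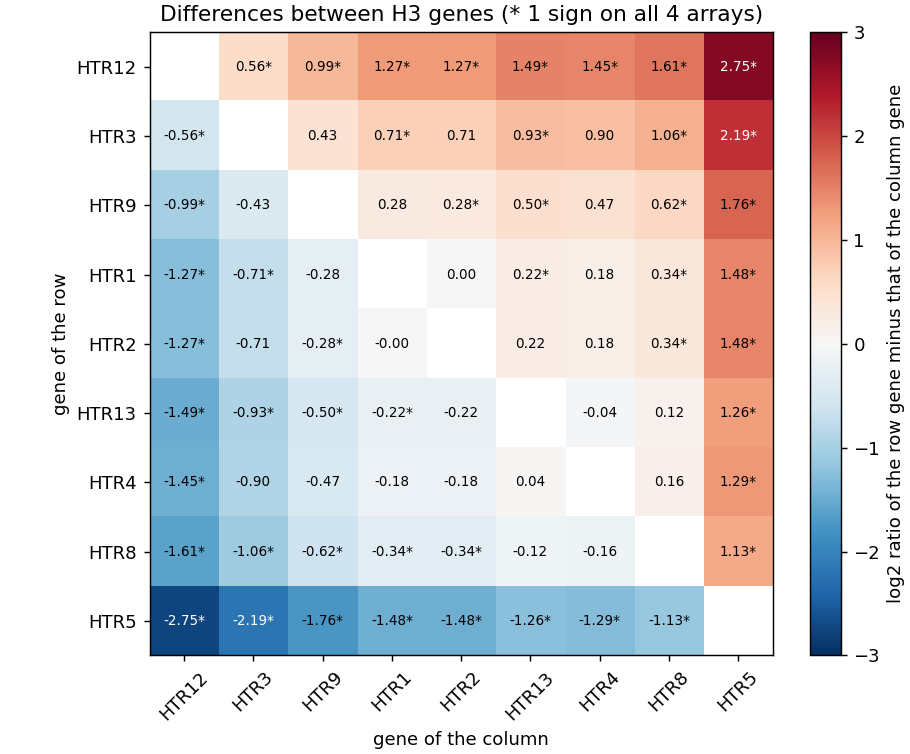
Mean difference over 3 replicates between the log2 ratio of the gene in the row and that of the gene in the column; colour runs from -3 (blue) to 3 (red), and an asterisk marks pairs with 1 sign on all 4 arrays. The row of HTR12 is positive throughout, from 0.56 against HTR3 to 2.75 against HTR5, and the row of HTR5 is negative throughout.

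Genes for the same protein did not share 1 ratio. Among the canonical genes, HTR3 exceeded HTR13 by 0.93 ± 0.18 (SD, n = 3; 0.52 to 1.15 on single arrays) and HTR1 by 0.71 ± 0.22 (0.25 to 0.96). HTR3 and HTR2 were not separated on every array: their difference ran from -0.02 to 1.30. HTR9 and HTR13 are next to each other in the RefSeq gene order of TAIR10.1, and HTR9 had the higher ratio on all 4 arrays, by 0.50 ± 0.29 (0.18 to 0.76). HTR4 and HTR5 are also next to each other, and their ratios differed by 1.29 ± 0.82, from 0.31 to 2.07 on single arrays. HTR8 exceeded HTR5 by 1.13 ± 0.37 (0.68 to 1.47), which does not rest on replicate 3. In the order of the means, HTR12, HTR3, HTR9, HTR1, HTR2, HTR4, HTR13, HTR8 and HTR5, HTR12 lay above HTR3, HTR3 above HTR9 and HTR8 above HTR5 in 3 of 3 replicates. The gap between HTR3 and HTR9 (0.43 ± 0.47) was nevertheless within its spread. Between HTR9 and HTR8 no neighbouring pair kept its order in all 3 replicates, and those neighbours do not differ beyond their spread.

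The dye moved with the ratio of some H3 genes. Between the 2 arrays of replicate 2, which hold the same RNAs, HTR2 was 1.04 higher and HTR9 0.68 higher where endosperm carried Cy5, at percentiles 98.3 and 95.8 of all probes. HTR3 and HTR12 were lower there, by -0.28 and -0.10, and HTR5 differed by 0.07. In all 7 of the 9 genes had the higher ratio with Cy5 (median difference 0.27), against 46.9% of all probes (median -0.02, SD 0.42). Both Cy5 arrays were above both Cy3 arrays for 4 of the 9 genes, HTR2, HTR8, HTR9 and HTR13 (20.9% of all probes), and both Cy3 arrays were above both Cy5 arrays for HTR3 (21.5% of all probes). With a dye term in the limma fit, which took the 4 arrays as independent, no probe passed (0 of 19449). An unadjusted p under 0.05 was found for 1828 probes (9.40%). HTR2 and HTR9 were among these, with a dye term of 0.84 and 0.68 and limma adjusted p = 0.328 and 0.413. Since replicate 1 carried only Cy3 and replicate 3 only Cy5, dye and sample are separated only within replicate 2. A dye effect cancels in the means above, which hold both dyes equally, but it stays in their SD and p-values. HTR12, HTR3 and HTR5 passed on the Cy3 arrays alone (1.55, 1.18 and -1.23) and on the Cy5 arrays alone (1.66, 0.92 and -0.91).

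**Figure D4:**
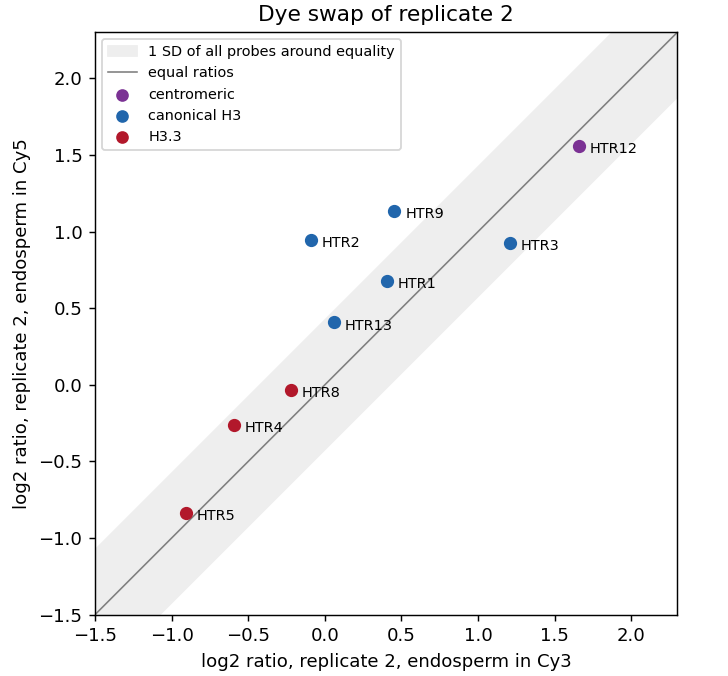
Log2 ratio of each H3 gene on the 2 arrays of replicate 2, with endosperm in Cy3 (horizontal axis) and in Cy5 (vertical axis); the line marks equal ratios and the band 1 SD (0.42) of the difference over all probes. HTR2 and HTR9 lie above the band, and the other 7 genes lie within it.

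Lists of related genes were next set beside the H3 genes. They hold other H3 genes, H3 chaperones, kinetochore and checkpoint genes, TSK, aurora kinases, the other histones and S phase genes. Of 90 listed genes, chosen with earlier results of these data known, 30 were measured on all 4 arrays. Of these, 22 were higher, 0 were lower and 8 missed the threshold, and their median ratio was 0.99 (for all probes 32.0% higher, 25.5% lower and a median of 0.11). Tested against a 1.5-fold change, 12 of the 30 passed, all as higher (for all probes 12.2% higher and 13.0% lower). Beyond the 9 loci, the H3-like gene HTR15 (AT5G12910) was higher at 1.06 ± 0.45 (SD, n = 3, limma adjusted p = 0.00501). HTR6 (AT1G13370) had no value in replicate 1 and was at 0.81, 1.32 and 0.67 on the other arrays, with a mean of 0.87 over 2 replicates (limma adjusted p = 0.0149).

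Both measured H3 chaperones were higher, of 13 listed, beside 32.0% of all probes. NASP (AT4G37210), which holds soluble H3 and CENH3 before they enter chromatin, was at 1.24, 1.06, 1.13 and 1.29, with a mean of 1.21 ± 0.10 (SD, n = 3), 2.31-fold (limma adjusted p = 0.000574). ASF1A (AT1G66740), which passes H3 and H4 to the factors that assemble nucleosomes, was at 1.14 ± 0.39, 2.20-fold (limma adjusted p = 0.00278), with its highest array in replicate 3 (1.58). Both means lie above that of HTR3, the highest of the canonical genes. TSK (AT3G18730), a repair protein that recognises H3.1 on newly copied DNA, was at 1.47, 1.33, 1.35 and 0.95, with a mean of 1.25 ± 0.27, 2.39-fold (limma adjusted p = 0.000994). It was the 1 gene measured of its list of 3.

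All 5 measured genes of the centromere and kinetochore list, of 10 listed, were higher, with a median of 1.10. Over all probes 32.0% were higher and the median was 0.11. BUB3.1 (AT3G19590), of a spindle checkpoint protein family, was at 1.38, 1.32, 1.39 and 1.34, with a mean of 1.36 ± 0.02 (SD, n = 3), 2.56-fold (limma adjusted p = 0.000351). NDC80, NUF2 and SPC25 encode subunits of the complex that binds kinetochores to microtubules. SPC25 (AT3G48210) was at 1.36 ± 0.36 and NDC80 (AT3G54630) at 1.10 ± 0.47, while NUF2 (AT1G61000) had a smaller ratio of 0.51 ± 0.27 (limma adjusted p = 0.00117, 0.00477 and 0.0269). BUBR1 (AT2G33560), another checkpoint protein, was at 0.44 ± 0.26 (limma adjusted p = 0.0428). The calls of NUF2 and BUBR1 were lost under 5 and 7 of the 12 alternatives, among them centring each array on its median (limma adjusted p = 0.058 and 0.0813). SPC24 (AT3G08880), of the same complex, had no value in replicate 3 and was at 0.98 over 2 replicates. The mean ratio of HTR12 was above that of each of these genes.

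Aurora kinases phosphorylate the tail of H3 as chromosomes condense. AUR3 (AT2G45490) was at 2.27, 1.63, 1.74 and 1.84, with a mean of 1.93 ± 0.30 (SD, n = 3), 3.82-fold (limma adjusted p = 0.000295). AUR1 (AT4G32830) was at 0.92 ± 0.12 (limma adjusted p = 0.00153), and AUR2 (AT2G25880) did not pass at 0.36 ± 0.62, with 1 array, that of replicate 1, far above 0 (1.07). Of the S phase list 4 of 21 genes were measured and all 4 were higher, beside 32.0% of all probes. So few genes are too small a count to judge against that share. ICU2 (AT5G67100), a DNA polymerase alpha gene (catalytic subunit), had a mean of 1.31 ± 0.23 (limma adjusted p = 0.000709). The flap endonuclease gene FEN1 (AT5G26680) had a mean of 1.24 ± 0.43 (limma adjusted p = 0.0025). CDC6B (AT1G07270) varied more, at 1.89, 0.38, 0.19 and 1.05, with a mean of 1.07 ± 0.80 (limma adjusted p = 0.0239). Its SD lay at percentile 97.2 of all probes.

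The partner histones were uneven, like the H3 genes. Over all probes 32.0% were higher. The counts for H4 and H1 are too small to judge against that share, and so are those of the other short lists given above. Of 7 measured H2B genes 5 were higher, with a median of 1.16, led by HTB6 (AT3G53650) at 2.07 ± 0.25 and HTB7 (AT3G09480) at 1.77 ± 0.20 (limma adjusted p = 0.000201 and 0.000246). Of 5 measured H4 genes 1 was higher, AT3G53730 at 0.84 ± 0.12 (limma adjusted p = 0.00217), and the others did not pass and lay between -0.34 and 0.15. Of 2 measured genes for linker histone H1, HON2 (AT2G30620) was higher at 0.65 ± 0.22 (limma adjusted p = 0.00933) and HON3 did not pass at 0.26 ± 0.35. None of the 13 listed H2A genes had a named probe. HTB5, like HTR2, was near 0 with Cy3 and well above 0 with Cy5, at -0.03, -0.15, 1.34 and 1.18. It missed the threshold (limma adjusted p = 0.0803).

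**Figure D5:**
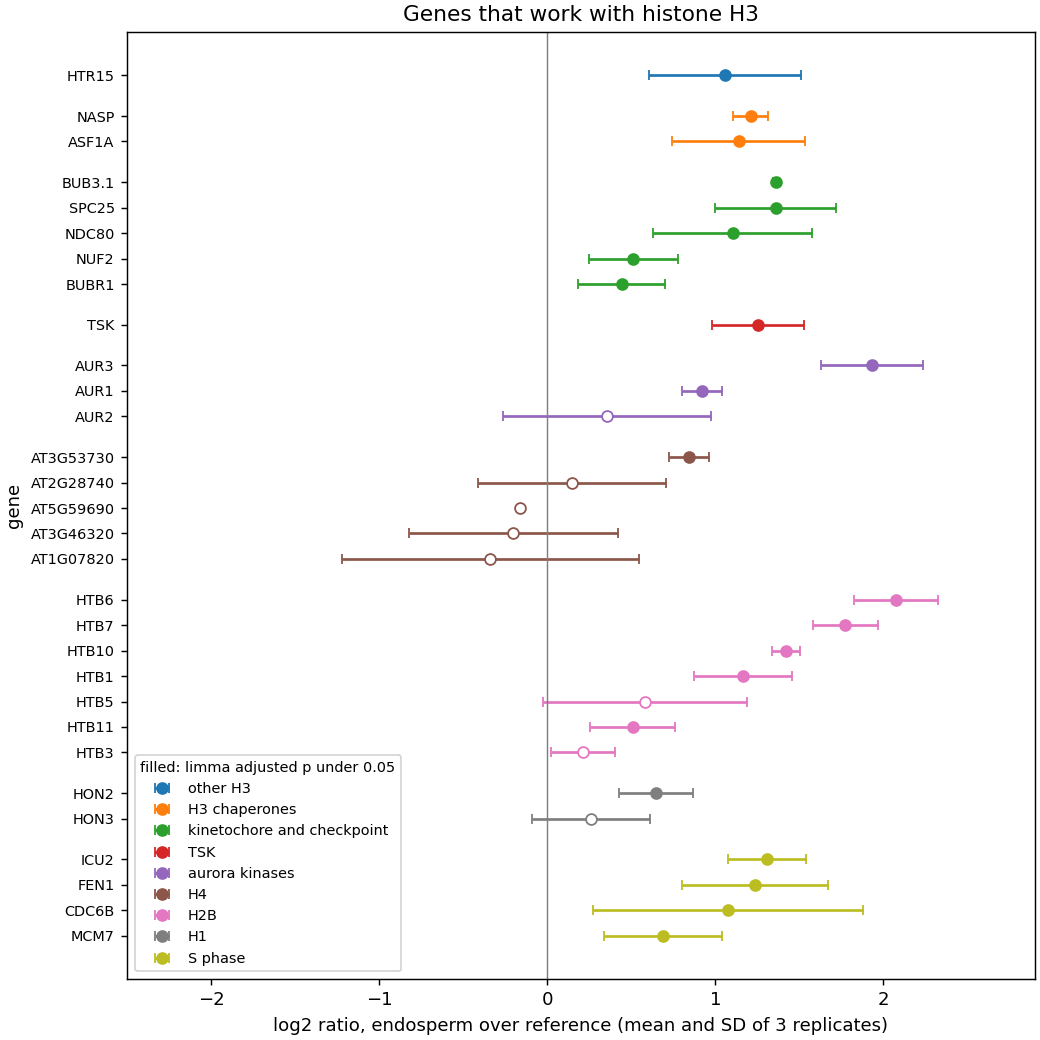
Mean log2 ratio of endosperm over reference (horizontal axis) with SD over 3 replicates for the 30 measured genes of the related lists (vertical axis), coloured by list; filled points passed the limma test at an adjusted p under 0.05. All 22 filled points lie right of 0, while 4 of the 5 H4 genes are open points near 0 with bars up to 0.88 long to each side.

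The named probes whose 4 values came closest to those of HTR12 and HTR5 were found by the root mean square difference over the 4 arrays, among 10674 named probes of other loci. For HTR12 these were AT3G47030, AT2G24580 and AT5G25470, with differences of 0.06, 0.08 and 0.08. For HTR5 they were AT4G00295, AT1G70390 and AT1G51340, with differences of 0.06, 0.08 and 0.10. None of these 6 is a histone gene of the lists. With 4 arrays of 3 samples, many probes can come this close.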

How the data were processed

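Each of the 3 endosperm samples was compared with 1 reference RNA on 2-colour arrays. Per the labels' protocols, RNA was amplified in 2 rounds of in vitro transcription, which starts at the 3' end and can change proportions between transcripts, and was coupled to Cy dyes. The authors deposited 1 log ratio per probe and array, with values of both signs and a mean within 0.003 of 0 on each array. The deposited values were taken as log2, which they do not settle themselves. Log base, numerator, normalization and filter stayed unknown (not given in the sources used here). No intensities were used, so dim or saturated spots could not be set aside; the number of arrays limits the precision. Of 26912 probes 14539 were named, and 14485 of these were matched to RefSeq genes of TAIR10.1 by gene identifier. Listed genes without a named probe may still have a probe among the others. No coordinates are printed, as no build of the array is known here.

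The arrays of replicate 2 were averaged (n = 3). Means were tested against 0 over all probes with limma 3.58.1 in R 4.3.3 (lmFit, eBayes, Benjamini-Hochberg, 2 residual degrees of freedom). The fit was also run on simulated data with independent arrays and no dye effect, which therefore do not test how it handles the dye swap. Differences between genes used an exact sign-flip permutation test in scipy 1.17.1. Named are all 9 H3 genes, every measured gene of the shorter lists, and the 3 probes nearest to HTR12 and HTR5. Of the H4, H2B, H1 and S phase lists, up to 2 with the smallest p among those called are named. HTB5, HON3 and CDC6B were named after their values were seen. The members and lists were chosen with earlier results of these data known. Alternatives left out each replicate, centred arrays, added dye, kept replicate 2 arrays apart, used 1 dye, allowed a missing replicate, averaged probes per gene, or tested against a fold change of 1.5.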

Additional observations from a re-analysis of the deposited data

How the results depend on the processing

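HTR12, HTR3 and HTR5 kept their direction and their call under all 12 alternatives, with means from 1.51 to 1.68, from 0.92 to 1.18 and from -1.27 to -0.91. HTR13, HTR4 and HTR8 stayed without a call under all 12, and of these only HTR13 kept its direction. The number of H3 genes called higher was 5 with the dye as a covariate and between 2 and 4 otherwise. With the dye HTR1 and HTR2 passed too. That fit also took the 4 arrays as independent, which counts replicate 2 more than once. Of all 19449 probes it called 7329 higher, beside 6231 in the main fit, so the count rose over all probes too. The number of H3 genes lower was 1 throughout. HTR9 was not called under 4 of the 12 alternatives. Signs turned only for genes that were not called: on the Cy3 arrays alone HTR2 was at -0.0604 and HTR4 at -0.40, and on the Cy5 arrays alone HTR8 was at 0.0815 and AUR2 at -0.0338. Leaving out 1 replicate gave HTR4 from -0.31 to 0.44, HTR8 from -0.111 to 0.0533 and AUR2 from -0.0014 to 0.54. The difference between HTR3 and HTR13 was 1.15 on the Cy3 arrays and 0.67 on the Cy5 arrays. Against a fold change of 1.5, 12 related genes were higher, and 2364 probes were higher and 2521 lower; with genes in place of probes the counts were 3571 and 2488, since fewer features were tested. The random-block fit used a correlation of 0.36 within replicate 2, estimated by moments because limma's own estimate gave no value. It describes the spread of each probe between arrays and is not the correlation across probes given earlier. The cause of the other shifts was not tested.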
